A study of Mus musculus with 12 samples.

Results

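The transcriptomes of macrophages that had received vesicles loaded with miR-142-5p were compared directly with those of macrophages that had received vesicles loaded with miR-222-3p. The comparison used the 6 libraries of these groups, 3 per group, of the 12 libraries in the series, and no control library. The cells were RAW264.7, a mouse macrophage line, exposed for 48 h to extracellular vesicles (EVs) at 3 µg of EV protein per ml. The EVs came from MS-1 cells, a mouse endothelial line, and had been electroporated with a mimic of mouse miR-142-5p (miR-142-5p-EVs) or of mouse miR-222-3p (miR-222-3p-EVs). All cells therefore shared the line, the medium with vesicle-depleted serum, the EV source, the electroporation and the dose, and the groups differed in the loaded mimic. The remaining libraries came from cells given EVs with a control mimic (ctrl-EVs) or a miR-183-5p mimic (miR-183-5p-EVs), and no group without EVs was analysed here. Libraries were numbered 1 to 3 in each group by their titles, and the miR-142-5p-EV and miR-222-3p-EV libraries of the same number were treated as a pair. The study states in general that experiments were repeated, but not what a number stands for or whether these libraries came from separate cultures. The p-values of the main fit therefore measure the spread between these libraries that is left once the number is accounted for. That spread may be technical. The cells are 1 established line, and the amount of mimic that reached them cannot be read from these libraries, in which 0 of 118783 listed transcripts are annotated as miRNAs.

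A miRNA guides Argonaute proteins to messenger RNAs, mostly through pairing of its seed, bases 2 to 8, with the 3′ UTR, and the bound message is usually destabilised. Because a miRNA can only be expected to act on messages that carry its sites, miRNAs with unlike seeds address different sets of messages. Such sets can overlap, since a message may carry sites for both. miR-142-5p is abundant in blood cells, and miR-222-3p, made from a cluster with miR-221, is known for its activity on cell cycle inhibitors in endothelial and tumour cells. The mature sequences below, from RefSeq (GRCm38.p6), are shown because their seeds, in capitals, define the site classes used later. The study lists the sequences of its mimics, which are not printed here and may differ in length from the mature miRNAs.
mmu-miR-142a-5p, chr11:87756867-87756887, plus strand: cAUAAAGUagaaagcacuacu
mmu-miR-222-3p, chrX:19146901-19146923, minus strand: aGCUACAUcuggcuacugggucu
mmu-miR-221-3p, chrX:19146307-19146329, minus strand: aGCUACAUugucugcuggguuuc
The seeds of the 2 loaded miRNAs differ, and the seed of miR-222-3p is the same as those of miR-221-3p and of the shorter mmu-miR-1928. miR-222-3p thus shares its target letters with a miRNA that cells may make on their own. The cells may also make either loaded miRNA themselves, which cannot be read from these libraries. Among the mature mouse miRNAs listed, no other carries the miR-142-5p seed.

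The libraries held 16294611 to 21801355 estimated counts each, and 12962 to 13269 genes reached 10 counts. Mitochondrial transcripts took 3.45 to 4.88% of the counts. Macrophage identity was checked on 12 markers, of which 11 passed the count filter. Cd68, Lyz2, Csf1r and Ptprc were well detected in all 6 libraries and Mertk did not pass. The summed level of the markers was 1650.5 to 2041 TPM (transcript abundance scaled to a fixed total per library) with miR-142-5p-EVs and 1706 to 2118 TPM with miR-222-3p-EVs. The marker Adgre1 was low, at 4.28 to 8.58 TPM in these libraries. For 16 endothelial markers, which would mark RNA from the EV source, the sums were 18.4 to 37.9 TPM and 20.8 to 36.0 TPM. Of these markers 11 did not pass the count filter, among them Kdr, Tek, Tie1 and Flt1, and 2 were at 0 in all 6 libraries. The sums of 10 fibroblast markers were 9.87 to 12.2 TPM and 9.17 to 16.8 TPM. Those of 10 haemoglobin and lymphoid markers were 1.72 to 2.97 TPM and 0.67 to 2.87 TPM. The ranges of the 2 groups overlapped for each of the 4 marker lists. In bulk RNA, fewer cells with a transcript and less of it per cell cannot be told apart.

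The first question was how far the choice of loaded miRNA altered the macrophage transcriptome. Very little separated the groups: of 13252 genes tested, 1 passed an adjusted p of 0.05 in DESeq2 with the replicate number as a block, which is 0.00755% of the genes. That gene was Prss35, which was higher with miR-142-5p-EVs. At an unadjusted p under 0.05 there were 202 genes (1.52%), 108 higher (0.815%) and 94 lower (0.709%) with miR-142-5p-EVs. By edgeR with the block 0 genes passed, 529 (3.99%) had an unadjusted p under 0.05, and the lowest adjusted p was 0.405. Evenly spread p-values would put a share of 0.05 under this threshold, more than either fit gave. The differences were small as well as rarely called. Among 10848 genes that averaged 50 or more normalised counts, the median absolute log2 difference was 0.06 and the median standard error 0.12. For 97.5% of these genes the 95% interval of the difference lay within 2-fold in either direction, and for 84.3% it lay within 1.5-fold. A larger difference is thus outside the interval for most well-detected genes, while smaller ones remain possible.

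**Figure D1:**
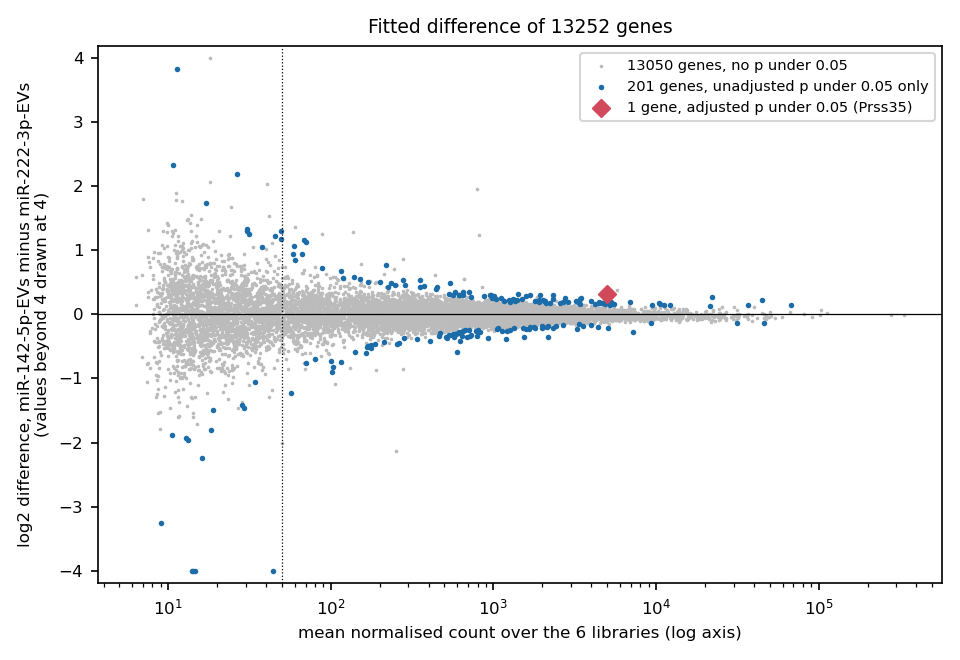
Each point is 1 of 13252 genes, with its mean normalised count over the 6 libraries on a log axis and its fitted log2 difference, miR-142-5p-EVs minus miR-222-3p-EVs, on the vertical axis, where values beyond 4 are drawn at 4. Blue points are the 201 genes with only an unadjusted p under 0.05, the red diamond is Prss35, and the dotted line marks a mean of 50 counts, to the right of which the cloud narrows to a median absolute difference of 0.06.

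The plot of fitted differences against expression shows few wide values among well-detected genes. Of the 10848 genes that averaged 50 or more counts, 12 differed by more than 2-fold, and 4 of these had an unadjusted p under 0.05. These were Kifc2, Sned1 and Fam220a, which had higher values with miR-142-5p-EVs, and the pseudogene Gm15725, which had lower ones. They are named after their values were seen. Gm15725 had 15.7, 53.5 and 38.7 normalised counts with miR-142-5p-EVs, against 97.5, 68.2 and 68.5 with miR-222-3p-EVs in libraries 1, 2 and 3. Its groups did not overlap, and its log2 difference was -1.23 (adjusted p = 0.9998 by DESeq2). It is the only one of the 4 whose difference stayed above 2-fold without the length correction described below. Near-identical copies of this pseudogene were not sought, so the assignment of its reads is uncertain.

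Libraries differed more between numbers than between the EV groups. Within a number, the median absolute log2 difference between the EV groups was 0.10 in number 1, 0.13 in number 2 and 0.10 in number 3. Between numbers of the same EV group it was 0.24 to 0.46. Libraries of the same number deviated from their group means together, with Pearson r across 10848 genes of 0.804, 0.868 and 0.842. Libraries of different numbers gave -0.683 to 0.0693. Deviations from a group mean sum to 0 over its 3 libraries. The lower values between numbers therefore follow from the high ones within numbers and are no separate sign of pairing. Genes are not independent replicates, and these correlations are descriptions.

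The 3 paired differences did not resemble each other. Across the same 10848 genes, the differences of numbers 1 and 2 had r = -0.0919, those of numbers 1 and 3 had r = 0.0691, and those of numbers 2 and 3 had r = -0.122. The sign was the same in 3 of 3 numbers for 3116 of 13252 genes (23.5%), and the groups did not overlap for 216 (1.63%, with 0.777% higher and 0.853% lower with miR-142-5p-EVs). Among the 10848 genes that averaged 50 or more counts the groups did not overlap for 122 (1.12%). A paired profile that recurred from number to number was not seen across genes. An exact permutation test on a single gene could not go below 0.10 with 3 against 3 libraries, nor below 0.25 with 3 pairs, so none was run.

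The 2 EV groups were also the nearest to each other of the 4 in the series. On a scale fitted to all 12 libraries, the median absolute log2 difference within a number, averaged over the numbers, was 0.109 between the compared groups. It was 0.116 to 0.186 for the other 5 pairs of groups, and 0.162 and 0.171 for each of the compared groups against ctrl-EVs. In number 2, however, the miR-142-5p-EV library was nearer to that of ctrl-EVs (0.128) than to that of miR-222-3p-EVs (0.133), and in number 3 the miR-222-3p-EV library was nearer to that of miR-183-5p-EVs (0.0831) than to that of miR-142-5p-EVs (0.0954). The pairs share libraries, and the order was not tested.

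Prss35, the called gene, encodes a secreted member of the trypsin-like serine protease family and lies at chr9:86743649-86758443 on the plus strand (GRCm38). Its normalised counts were 7822, 5349 and 3451 with miR-142-5p-EVs, against 6423, 4098 and 2792 with miR-222-3p-EVs, in libraries 1, 2 and 3. The miR-142-5p-EV library was the higher in each pair, but the groups overlapped, since library 1 was the highest and library 3 the lowest in both. The log2 difference was 0.32 (SE 0.07, 95% interval 0.19 to 0.46), or 1.25-fold (1.14 to 1.37), with an adjusted p of 0.0325 by DESeq2. Within the numbers the log2 differences were 0.28, 0.38 and 0.31. The call rested on the block and on all 3 pairs. Without the block the difference was 0.32 with an adjusted p of 0.9999, and with edgeR and the block it was 0.33 with an adjusted p of 0.672. When a pair was left out the difference was 0.30 to 0.34 and the adjusted p 0.322 to 0.99996.

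Set beside the groups that were not in the test, the level of Prss35 does not single out miR-142-5p-EVs. It was 217, 121 and 74.4 TPM with ctrl-EVs, 180, 107 and 84.3 TPM with miR-142-5p-EVs, 188, 76.2 and 73.4 TPM with miR-183-5p-EVs and 143, 80.1 and 69.1 TPM with miR-222-3p-EVs. By mean the order was ctrl-EVs (137 TPM), miR-142-5p-EVs (124), miR-183-5p-EVs (112) and miR-222-3p-EVs (97.5), with standard deviations of 40.0 to 72.7 TPM (n = 3 each). No neighbours in this order were further apart than that spread. The miR-222-3p-EV library was the lowest of the 4 in numbers 1 and 3, and the miR-183-5p-EV library in number 2.

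**Figure D2:**
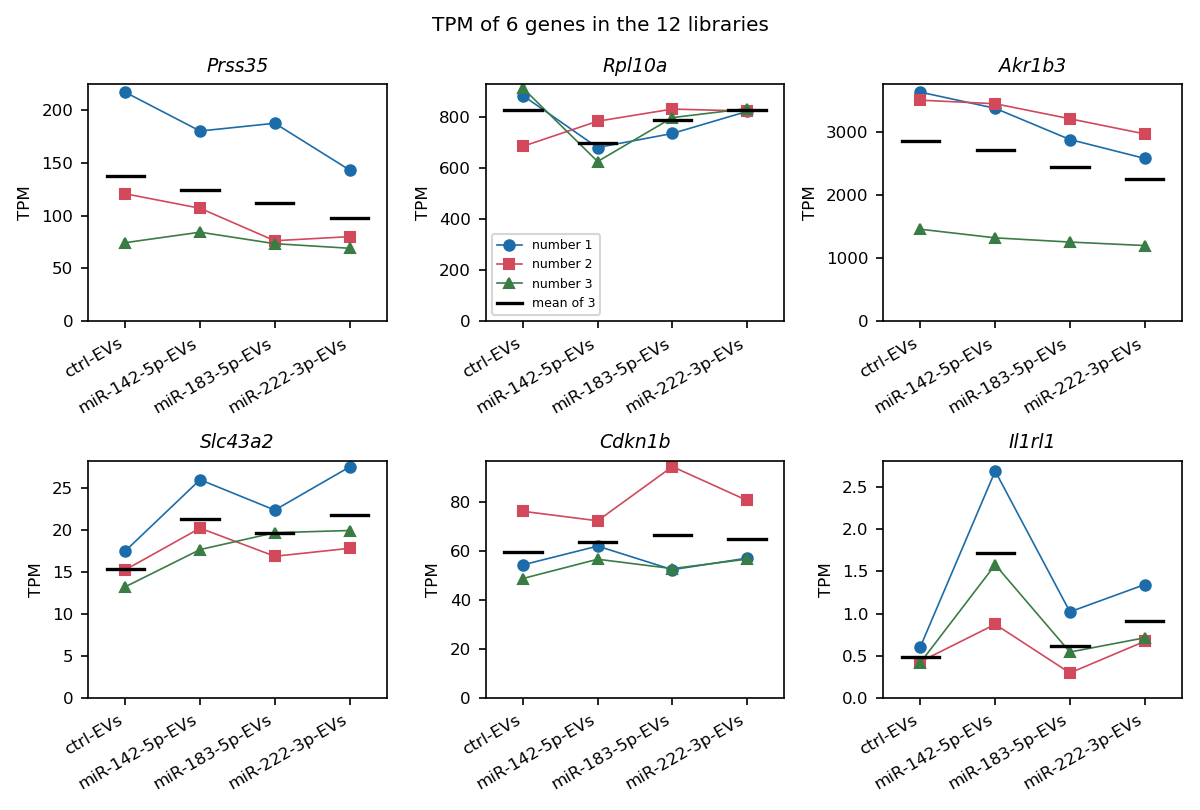
TPM of Prss35, Rpl10a, Akr1b3, Slc43a2, Cdkn1b and Il1rl1 in the 12 libraries, by EV group, with lines joining libraries of the same number and black bars for the mean of 3. Prss35 ran from 69.1 to 217 TPM, mostly by number, and Il1rl1 was highest with miR-142-5p-EVs in every number.

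The next genes by p, listed where the mean was at least 50 normalised counts and the sign was the same in 3 of 3 numbers, did not pass the test. Akr1b3 encodes aldose reductase, which reduces glucose and other aldehydes. Its normalised counts were 57569, 67715 and 21243 with miR-142-5p-EVs, against 45454, 59684 and 19039 with miR-222-3p-EVs, again higher in each pair and overlapping between groups. The log2 difference was 0.23 (SE 0.06, adjusted p = 0.723 by DESeq2). Rpl10a, a protein of the large ribosomal subunit, had 6179.6, 8195 and 5356 counts with miR-142-5p-EVs, against 7707, 8812 and 7039.9 with miR-222-3p-EVs. All 3 pairs were lower with miR-142-5p-EVs, by -0.27 on the log2 scale (SE 0.07, adjusted p = 0.723 by DESeq2). Without the libraries of number 2 the difference was -0.36 and passed the test (adjusted p = 0.00886). Rpl10a-ps1, a listed pseudogene whose transcript is identical to 78.8% of the Rpl10a transcript, had a difference of 0.01, and the division of reads between the 2 is an estimate.

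Gm28661 had 20866, 20599 and 30821 counts with miR-142-5p-EVs, against 14662, 19033 and 27351 with miR-222-3p-EVs, a log2 difference of 0.27 (adjusted p = 0.9998 by DESeq2). It is annotated as a nuclear pseudogene on chromosome 1, and its transcript is identical to mt-Co2, the mitochondrial gene for a cytochrome c oxidase subunit. mt-Co2 itself had a difference of 0.04. Reads of this pair can be assigned either way, so the value of Gm28661 is uncertain.

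For many of these genes the difference moved with how reads were divided among the transcripts of the gene. The fit corrects counts for the mean length of the transcripts that Salmon assigned to a gene in each library. Without that correction, 112 of the 202 genes with an unadjusted p under 0.05 kept under 50% of their difference or had the other sign, and 52 still had an unadjusted p under 0.05. Of the 20 genes listed by p, 9 kept at least 50% of their difference, among them Prss35, Akr1b3, Gm28661, Hspa4l, Dclre1b, Rpl10a, Pik3ip1 and Itgb7. Espl1, Ptar1 and Edem1 changed sign.

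Tlr3, the endosomal receptor for double-stranded RNA, shows the pattern. Its length-corrected counts were 86.1, 31.9 and 92.4 with miR-142-5p-EVs, against 156, 54.5 and 189 with miR-222-3p-EVs, a log2 difference of -0.90 (adjusted p = 0.9998 by DESeq2). The estimated counts summed over its transcripts were 135, 29 and 146 against 181, 28 and 141, and the difference without length correction was -0.08. The mean transcript length was 2895, 2374 and 3237 nt with miR-142-5p-EVs and 2192, 1296 and 1394 nt with miR-222-3p-EVs. Ptar1 moved the other way, with mean lengths of 10404, 8854 and 8754 nt against 11841, 11910 and 11412 nt. Its difference was 0.30 with the correction and -0.03 without. Its groups did not overlap in mean length, but mean lengths were not tested.

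Among the other genes listed as higher with miR-142-5p-EVs, Hspa4l, a chaperone of the Hsp110 family, had a log2 difference of 0.25 with length correction and 0.16 without. Dclre1b, a nuclease that protects telomeres, had 0.30 and 0.18. Espl1, the protease separase that cleaves cohesin, had 0.31 and -0.04, Pgap1, which remodels GPI anchors, 0.29 and 0.05, and Ttc3, a ubiquitin ligase, 0.26 and 0.04. Fam220a had 1.17 and 0.33, with groups that did not overlap, but a second gene model of the same symbol has an identical transcript. None of these passed the test.

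Among the genes listed as lower with miR-142-5p-EVs, Itgb7, an integrin subunit of leukocytes, had -0.32 with length correction and -0.23 without, and Pik3ip1, a membrane protein that restrains PI3K, had -0.33 and -0.17. Acer3, an alkaline ceramidase, had 493, 514 and 596 length-corrected counts with miR-142-5p-EVs, against 669, 669 and 788 with miR-222-3p-EVs, which did not overlap. Its difference was -0.41 with the correction and -0.05 without. Sec24d, a COPII coat protein, had -0.37 and -0.12, Ankrd12 -0.39 and -0.05, and Mamdc4 -0.82 and -0.17. Edem1, which delivers misfolded proteins to degradation, had -0.19 and 0.03. Here too none passed.

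**Figure D3:**
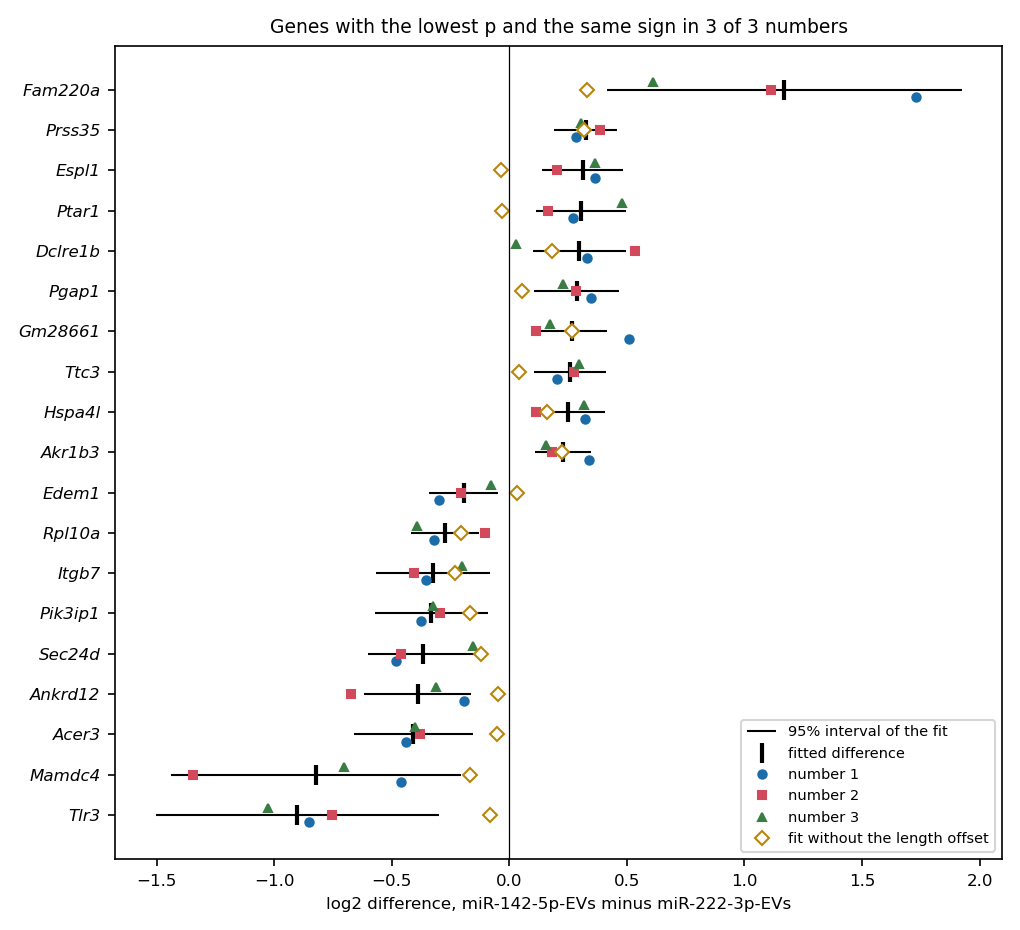
Log2 difference, miR-142-5p-EVs minus miR-222-3p-EVs, for genes with the lowest p that had the same sign in 3 of 3 numbers, with the fitted value, its 95% interval, the value within each number and the fit without the length offset (open diamonds). The diamond stays on the fitted value for Prss35, Akr1b3 and Gm28661 and lies near 0 for Tlr3, Acer3, Espl1 and Ptar1.

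The second question was whether messages that carry sites for the loaded miRNAs differed between the groups. Sites were sought in the 3′ UTR of the most abundant coding transcript of each gene. For miR-142-5p the letters were ACTTTATA (8mer), ACTTTAT (7mer-m8) or CTTTATA (7mer-A1). For miR-222-3p they were ATGTAGCA, ATGTAGC or TGTAGCA. Only the message strand was searched, each 8mer contains both 7mers and was counted once, and a match is a description and not a shown site of action. Of 12305 tested genes with a 3′ UTR, 2509 (20.4%) held a miR-142-5p site and 1918 (15.6%) a miR-222-3p site.

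The stretches below, of GRCm38, are shown for the called gene and for genes long described as targets of these miRNAs. Capitals mark the letters that match.
Prss35, miR-142-5p 7mer-A1, chr9:86756619-86756640, plus strand: gtatatattCTTTATAtggtga
Nfe2l2, miR-142-5p 8mer, chr2:75675865-75675886, minus strand: gcagaaacACTTTATAagtaac
Cdkn1b, miR-222-3p 8mer, chr6:134924423-134924444, plus strand: agcattggATGTAGCAttgcgc
Prss35 thus carried a miR-142-5p match, at position 219 of a 3′ UTR of 1802 nt, and no miR-222-3p match of these kinds, while its level was higher and not lower with miR-142-5p-EVs. Nfe2l2 carried a match to miR-142-5p alone and Cdkn1b matches to miR-222-3p alone, among them a pair of 7mer-A1 matches besides the 8mer.

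By site class the groups hardly differed. Values below 0 stand for lower levels with miR-142-5p-EVs and values above 0 for lower levels with miR-222-3p-EVs. The median log2 difference was 0.01 for 1760 genes whose only sites were for miR-142-5p and 0.01 for the 1169 genes with a miR-222-3p site alone. It was 0.01 for the 749 genes with both and -0.01 for the 8627 with neither. The share of genes above 0 was 54.0%, 52.9% and 53.5% in the 3 classes with sites and 46.7% without, beside 48.8% of all tested genes. Genes with a site for either miRNA thus lay on the same side, slightly above the rest.

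Genes with 8mers or with several sites had medians of the same order. The 562 genes with a miR-142-5p 8mer had a median of 0.0076 and the 642 genes with 2 or more miR-142-5p sites 0.0139. The 409 genes with a miR-222-3p 8mer had 0.0057 and the 370 with 2 or more miR-222-3p sites 0.0068. At an unadjusted p under 0.05 there were 39 of the 1760 with miR-142-5p sites alone (2.22%, 33 higher and 6 lower). There were 18 of 1169 with a miR-222-3p site alone (1.54%, 8 higher and 10 lower). Among all 12305 genes with a 3′ UTR the share was 1.53%, 100 higher and 88 lower. The split by direction was not tested. Of all 202 tested genes at this threshold, 112 kept under 50% of their difference or had the other sign without the length correction.

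The shared side of the site classes was not stable between numbers. For the class of miR-142-5p sites alone the median within a number was 0.02, -0.02 and 0.03, and for genes with both kinds of sites it was 0.03, -0.07 and 0.06. Genes with sites also had longer 3′ UTRs, with a median of 1766 nt for a miR-142-5p site alone and 1842 nt for a miR-222-3p site alone, beside 591 nt for neither. Among genes with a 3′ UTR over 1501 nt the medians were 0.0140, 0.0098 and 0.0038 for these 3 classes. Among those under 502 nt they were -0.0076, -0.0253 and -0.0158. The part of 3′ UTR length in the difference between classes was not tested further.

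**Figure D4:**
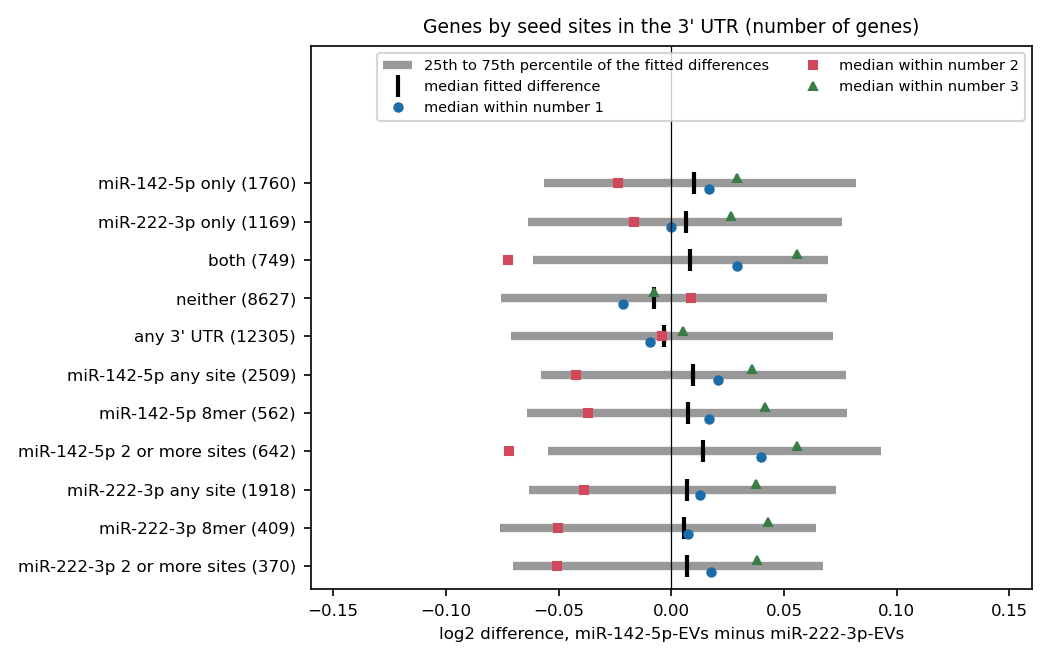
Fitted log2 difference, miR-142-5p-EVs minus miR-222-3p-EVs, by seed sites in the 3′ UTR, with the median (bar), the 25th to 75th percentile (grey) and the median within each number (symbols). The fitted medians lie within 0.02 of 0, and number 2 lies below 0 in each class with sites.

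Genes described as targets did not part by miRNA either. The 7 described targets of miR-142-5p had 6 tested members, of which 0 were called and 0 had an unadjusted p under 0.05, with a median of -0.03 beside -0.0032 for all tested genes. All 6 had fitted values below 0, from -0.17 (Sirt1, a NAD-dependent deacetylase) to -0.00. Their medians within the numbers were -0.10, -0.05 and -0.03. The 16 described targets of miR-222-3p had 14 tested members, 0 called and 0 with an unadjusted p under 0.05, with a median of -0.03. Of these 5 lay above 0 and the range was -0.16 (Irf2, an interferon regulatory factor) to 0.23 (Mgmt, a DNA repair enzyme) at a mean of at least 50 counts. Medians of the 2 lists therefore lay on the same side of 0.

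Cdkn1b, which encodes the cell cycle inhibitor p27 and is a described target of miR-222-3p, had 2513, 3376 and 2163 normalised counts with miR-142-5p-EVs, against 2388, 3854 and 2138 with miR-222-3p-EVs. Neither group was higher throughout. Its difference was -0.03 (95% interval -0.20 to 0.13), so that a difference of 1.5-fold lies outside the interval.

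Nfe2l2, which encodes the oxidative stress factor NRF2, had a log2 difference of -0.04 (SE 0.08), from 2474, 1875 and 2966 counts against 2739, 1793 and 3030. Ddit4, an mTORC1 inhibitor with a miR-222-3p 8mer, had -0.04 (SE 0.08). Bmf, a pro-death BCL2 family member with a miR-222-3p 8mer and also a miR-142-5p 7mer-A1, had 0.01 (SE 0.09). These 3 genes are named for their 8mers, with their values known. Other genes given above carried an 8mer with a wider difference. Irf2 and Tlr3 had a miR-222-3p 8mer, with -0.16 and -0.90, and -0.05 and -0.08 without the length correction. Ptar1 had a miR-142-5p 8mer, with 0.30, and -0.03 without the correction. Bbc3, Ets1 and Cdkn1c also carried a miR-222-3p 8mer, and their values are not reported here. Socs1, a suppressor of cytokine signalling with matches to both miRNAs, did not pass the count filter. It had 7.21, 3.78 and 7.63 counts with miR-142-5p-EVs, against 7.08, 8.02 and 5.47 with miR-222-3p-EVs, too few to show a difference at this depth.

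The PI3K pathway was described with 30 genes. All 30 were tested, 0 were called, and 1, Pik3ca, had an unadjusted p under 0.05. The median was 0.02 and the members with a mean of at least 50 counts ran from -0.09 to 0.23. Pik3ca, the catalytic subunit p110 alpha, had 2277, 1979 and 2260.3 length-corrected counts against 1651, 2149 and 1786. It was higher with miR-142-5p-EVs in 2 of 3 pairs, with a log2 difference of 0.23 (adjusted p = 0.9998 by DESeq2) that was 0.02 without the length correction. Akt1, Akt2 and Mtor, the kinases of the pathway, had -0.06, 0.03 and -0.09 with standard errors of 0.08 to 0.10. The 17 genes of the silencing machinery had 0 called, 0 with an unadjusted p under 0.05 and a median of -0.01. The largest was Dgcr8, the partner of Drosha, at -0.37 with the length correction and -0.01 without.

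The third question was whether the polarisation genes of macrophages differed between the EV groups. Macrophages are commonly placed between an inflammatory state, M1, marked by Nos2 and cytokines, and a state of repair and immune restraint, M2, marked in mice by Arg1. Of 25 M2 markers 13 were tested, with 0 called and 1, Il1rl1, with an unadjusted p under 0.05, and the median was 0.01. Of 25 M1 markers 19 were tested, with 0 called, 0 with an unadjusted p under 0.05, and a median of -0.03. The M2 markers not tested for low counts included Arg1, Mrc1, Retnla, Chil3 and Cd163, and the M1 markers not tested included Il6, Il12b and Cxcl9. Much of both marker lists was therefore out of reach in these cells. The medians of the M2 list within the numbers were -0.11, 0.35 and 0.06, so that number 2 was apart from the others.

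Il1rl1, which encodes ST2, the receptor for IL-33, had the largest absolute difference among the polarisation markers with a mean of at least 50 counts. Its length-corrected counts were 121, 45.5 and 67.2 with miR-142-5p-EVs, against 62.2, 35.6 and 29.7 with miR-222-3p-EVs. It was higher with miR-142-5p-EVs in each pair, although the groups overlapped. The log2 difference was 0.84 (SE 0.40, 95% interval 0.07 to 1.62, adjusted p = 0.9998 by DESeq2). The estimated counts summed over transcripts were 106, 32 and 56 against 57, 45 and 50, with a difference of 0.26 without the length correction. Mean transcript lengths were 2455, 2792 and 2593 nt against 2638, 4849 and 4777 nt. Without the correction, pair 2 thus ran against the others. In TPM the order of means was miR-142-5p-EVs (1.71), miR-222-3p-EVs (0.908), miR-183-5p-EVs (0.619) and ctrl-EVs (0.485), each at most 2.69 TPM in any library.

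Arg1, arginase 1, had 2.12, 19.0 and 5.50 counts with miR-142-5p-EVs, against 4.11, 11.5 and 11.1 with miR-222-3p-EVs, below the count filter in both groups. Tgfb1, an immunosuppressive cytokine, had 764, 761 and 786 counts against 814, 744 and 744. Its difference was 0.01 with a 95% interval of -0.23 to 0.24. Nos2, the inducible nitric oxide synthase, had 199.8, 23.7 and 39.3 counts against 195, 39.1 and 24.2, with an interval of -0.69 to 0.75. Il1b had 26.2, 17.7 and 47.1 counts against 43.9, 28.9 and 41.0, with an interval of -1.42 to 0.63. For Nos2 and Il1b the intervals leave room for a 1.5-fold difference in either direction. The spread of Nos2 followed the numbers, with library 1 the highest in both groups.

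The study's own lists for in vitro M1 and M2 macrophages were larger. Of the M1 list 482 genes were tested, with 0 called, 7 higher and 2 lower at an unadjusted p under 0.05 (1.87%), and a median of -0.01. Of the M2 list 277 genes were tested, with 0 called, 3 higher and 3 lower (2.17%), and a median of 0.02. Over all tested genes the share was 1.52%, with 0.815% higher and 0.709% lower. Among the M1 list members with an unadjusted p under 0.05 were Hspa4l and Me1, and among those of the M2 list Il1rl1 and Tfrc, the transferrin receptor. Both lists centred on 0, with medians within the numbers of -0.02 to 0.03 and -0.01 to 0.04.

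**Figure D5:**
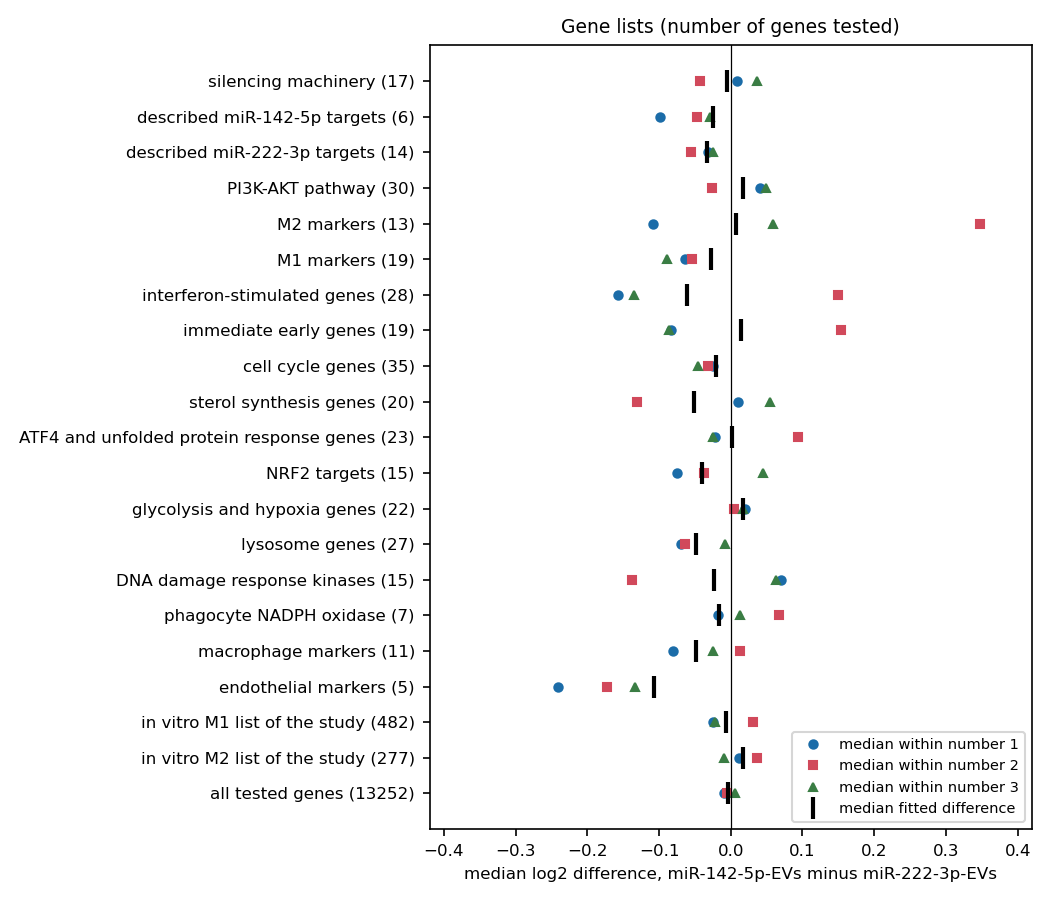
Median log2 difference, miR-142-5p-EVs minus miR-222-3p-EVs, of 20 gene lists with at least 5 tested members and of all tested genes, as fitted (bar) and within each number (symbols), with the number of genes tested in brackets. Fitted medians lie between -0.11 and 0.02, and the numbers often fall on both sides of 0, as for interferon-stimulated genes, where number 2 was above 0 and numbers 1 and 3 below.

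Interferon-stimulated genes had 28 tested members, 0 called, 0 with an unadjusted p under 0.05 and a median of -0.06, with 6 above 0. Isg15, a ubiquitin-like interferon-induced protein, had 291, 92.5 and 200 counts with miR-142-5p-EVs, against 368, 113 and 272 with miR-222-3p-EVs. It was lower with miR-142-5p-EVs in each pair, by -0.36 (SE 0.21, adjusted p = 0.9998 by DESeq2), and Oasl2 had -0.56 (SE 0.32). The list did not move as a whole, since its medians within the numbers were -0.16, 0.15 and -0.14. Immediate early genes had 19 tested members, 0 called and a median of 0.01, with 10 above 0. Nr4a1, an orphan nuclear receptor induced early after stimulation, had 109, 365 and 75.4 counts against 134, 395 and 158 (log2 difference -0.48, SE 0.24). Fosb, of the same list, went the other way in each pair (log2 difference 0.27, SE 0.33).

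Growth and metabolic genes were as close. The 35 cell cycle genes had 0 called, 0 with an unadjusted p under 0.05 and a median of -0.02, with members between -0.19 (Tyms) and 0.10. Of these genes 11 lay above 0, and in each pair 10 were lower with miR-142-5p-EVs and 0 higher. Over all tested genes 48.8% lay above 0, and in each pair 12% were lower and 11.6% higher. The 22 glycolysis and hypoxia genes had 0 called, 0 with an unadjusted p under 0.05 and a median of 0.02. Pfkl, the liver-type phosphofructokinase, was the largest of them at 0.16 (SE 0.08) and Hk1, a hexokinase, was next at 0.12 (SE 0.07). The 20 tested sterol synthesis genes had 0 called and 1 with an unadjusted p under 0.05, which was lower with miR-142-5p-EVs. The median of the sterol list was -0.05, and within the numbers 0.01, -0.13 and 0.06.

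Genes of oxidative stress had 15 tested members with 0 called. Me1, malic enzyme, had 11888, 15660.5 and 5218 counts against 9811, 15389.7 and 4404, a log2 difference of 0.18 (SE 0.07). Ftl1, the ferritin light chain, had 31589, 62727 and 38263 counts against 36733, 66304 and 41539, a difference of -0.14 (SE 0.06). These 2 genes of the list went in opposite directions, each in 3 of 3 pairs and neither past the test, and both share sequence with other listed genes. The 27 tested lysosome genes had a median of -0.05 with 4 above 0 and 1 with an unadjusted p under 0.05, Psap, the precursor of the saposins, at -0.13 (SE 0.06). Genes of the ATF4 and unfolded protein response (23 tested), the DNA damage response kinases (15) and the phagocyte NADPH oxidase (7) had 0 called, 0 with an unadjusted p under 0.05, and medians of 0.00, -0.02 and -0.02.

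Marker lists gave no call either. The macrophage markers had 11 tested members, 0 with an unadjusted p under 0.05 and a median of -0.05. Of them 1 lay above 0, beside 48.8% of all tested genes. In each pair 3 were lower with miR-142-5p-EVs and 0 higher, beside 12% and 11.6% of all tested genes. Adgre1 had the largest difference at a mean of at least 50 counts, -0.24 (SE 0.22). It was lower in each pair, and the difference was -0.14 without the length correction. Csf1r, the receptor for CSF1, had 3580.3, 1407 and 1902 counts with miR-142-5p-EVs, against 4422, 1205 and 2359 with miR-222-3p-EVs, a difference of -0.14 (SE 0.11) that was 0.00 without the length correction. The 5 tested endothelial markers had a median of -0.11 and 1 with an unadjusted p under 0.05, Cdh5, the cadherin of endothelial junctions. Cdh5 had 6.59, 4.25 and 2.66 counts with miR-142-5p-EVs, against 56.4, 4.91 and 22.4 with miR-222-3p-EVs, lower in each pair (log2 difference -2.25, SE 0.86, adjusted p = 0.9998 by DESeq2). The other endothelial markers with more counts, Eng and Vwf, had 0.12 (SE 0.27) and -0.11 (SE 0.28), the latter 0.06 without the length correction, and Pecam1 had 0.01 (SE 0.31). The part of endothelial RNA in other differences was not tested. Of the fibroblast markers 3 were tested and of the haemoglobin and lymphoid markers 1, with 0 at an unadjusted p under 0.05.

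Some genes that earlier results of these data had named had like levels in both EV groups. Differences from ctrl-EVs were not tested here. Slc43a2, a transporter of neutral amino acids, had 26.0, 20.2 and 17.6 TPM with miR-142-5p-EVs, against 27.5, 17.8 and 19.9 TPM with miR-222-3p-EVs, beside 17.5, 15.2 and 13.2 TPM with ctrl-EVs. Its log2 difference between the loaded groups was -0.05 (95% interval -0.24 to 0.15). Atm, the kinase that signals DNA breaks, had 33.4, 36.8 and 26.7 TPM against 29.3, 40.5 and 27.0 TPM, beside 22.5, 24.2 and 14.0 TPM with ctrl-EVs. Its difference was -0.01 (95% interval -0.18 to 0.17). With miR-183-5p-EVs Slc43a2 had 22.3, 16.8 and 19.7 TPM and Atm 25.7, 33.0 and 26.7 TPM. The likeness was thus not particular to the compared groups. Because both groups are set beside the same ctrl-EV libraries, the likeness of their distances from ctrl-EVs is not an independent result. The value that does not use ctrl-EVs is the direct difference.

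Listed genes with near-identical copies gave unsteady values. Gm8430, a pseudogene of the ribosomal gene Rps27a, was at 0 in all libraries of both groups except library 3 with miR-222-3p-EVs, which had 8.90 counts. Gm10273, a copy of the mitochondrial import gene Timm23, had 0.88, 4.96 and 0.97 counts against 1.80, 7.05 and 31.4. Neither passed the count filter. Rps27a and Timm23, the main copies, had log2 differences of -0.05 (SE 0.06) and 0.03 (SE 0.10). Gm49450, a gene model that overlaps the tubulin genes Tuba1a and Tuba1b and shares their sequence, had 0, 1.25 and 0 counts with miR-142-5p-EVs, against 53.6, 15.6 and 15.1 with miR-222-3p-EVs. Its adjusted p was 0.0599 by DESeq2, while Tuba1a and Tuba1b had -0.01 and 0.01.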

How the data were processed

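Polyadenylated RNA of 12 libraries was measured, and 6 were compared (RAW264.7 cells, 3 libraries for each of the 2 loaded miRNAs). The authors made stranded mRNA libraries, sequenced read pairs and quantified Ensembl mouse transcripts with Salmon. The deposited files give estimated counts per transcript, which need not be whole, and TPM values, scaled by Salmon within a library. Whether strand was used is not given in the sources used here. Transcripts were matched to GENCODE M21 genes of GRCm38 (116710 of 118783) and counts summed and rounded.

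Genes that reached 10 counts in 3 or more of 6 libraries were fitted in DESeq2 1.42.0 (R 4.3.3) with the replicate number as a block, mean effective transcript lengths weighted by TPM as offset, and a two-sided Wald test with Benjamini-Hochberg adjustment. The pairing comes from the numbers in the titles. The deviations of paired libraries from their group means correlated at 0.804 or more. Normalised counts are corrected for length, log2 ratios within a number use a pseudocount of 1, and intervals are 95% Wald intervals.

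Members and lists were chosen with earlier results of these data known. Named were called genes, up to 10 per direction by unadjusted p with a mean of at least 50 counts and the same sign in 3 of 3 numbers, 12 genes chosen by role or for earlier results, and 2 per list by size. Any other gene was named after its values were seen. Some results are not reported here. Copies were sought with blastn 2.17.0 at 95% identity over 50% of a transcript. The fit was tested on simulated data. Alternatives were edgeR 4.0.16, no block, TMM scaling, no length offset, other filters, all 12 libraries, and leaving out each pair. Counts cover sampling of reads only.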

Additional observations from a re-analysis of the deposited data

How the results depend on the processing

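The number of called genes was 1 with TMM scaling, with no filter on low counts, with a mean of at least 50 normalised counts and without independent filtering, and Prss35 was that gene each time. It was 0 with no replicate block (22 genes at an unadjusted p under 0.05) and 0 in edgeR with or without the block (529 and 16 genes). It was 2 with no length offset (Prss35, with an adjusted p of 0.000941, and Gm49450) and 2 with all 12 libraries in the fit (Gm20671 and Gm49450, both sharing sequence with other genes). Gm20671 was at 0 in all compared libraries except library 3 with miR-222-3p-EVs, which had 13.4 normalised counts. It did not pass the count filter of the main fit. Leaving out each pair of libraries gave 0 to 4. The 4 genes came without number 2 and were Rpl10a, Rplp1, Sap18 and Syne2, with log2 differences of -0.36, -0.31, 1.94 and 0.74, and Prss35 was not called when any number was left out. Sap18 and Syne2 had 0.20 and 0.09 with no length offset on all 3 pairs. With 2 pairs the test has fewer samples, and the cause was not tested further.

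No called direction was reversed. Of 68 named genes 12 changed sign with no length offset. Of 22 list medians, 8 changed sign without number 2, 4 without number 3 and 3 without number 1. With no replicate block 3 changed sign and with no length offset 4, so the side of 0 was not stable for some lists. Others kept their side within each number. The medians were -0.064, -0.054 and -0.089 for M1 markers and -0.025, -0.032 and -0.046 for cell cycle genes. They were -0.069, -0.064 and -0.008 for lysosome genes and 0.020, 0.005 and 0.017 for glycolysis and hypoxia genes. These were not tested. Some list medians moved beyond the spread between numbers. The described miR-222-3p targets went from -0.03 to -0.0631 with no replicate block, to -0.00886 with no length offset, and to between -0.0505 and -0.0138 when a pair was left out. The M1 markers went from -0.03 to -0.0551 with no replicate block and to between -0.0891 and -0.0590 when a pair was left out, and cell cycle genes from -0.02 to between -0.0344 and -0.0209. Glycolysis and hypoxia genes went from 0.02 to -0.00012 with no replicate block and -0.00086 with no length offset. Endothelial markers went from -0.11 to -0.0440 with no length offset, -0.0460 with a mean of at least 50 counts, and -0.0266 to 0.00754 when a pair was left out. The 11 site class medians stayed within that spread under the 7 settings run for them, yet 8 changed sign without number 1 and 7 without number 3. The count of genes whose groups do not overlap, 216, was 143 with no length offset and 122 at a mean of at least 50 counts, settings chosen after seeing the data. Precision at 3 pairs and low counts limits what could be detected.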
